A study of Homo sapiens with 12 samples.

Results

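Mitosis genes encode the proteins that carry a cell from G2 through chromosome segregation to cytokinesis. A set of 47 such genes was followed by gene symbol in an RNA-seq table of 60504 features, and all 47 were found. All 47 also passed the filter on low values, so none was lost, among 14391 tested genes. The libraries came from TKO cells, a derivative of the human multiple myeloma line KMS-11 whose genotype is given as WHSC1(+/-). WHSC1 is an older symbol of NSD2, which encodes a histone H3 lysine 36 methyltransferase that the t(4;14) translocation of KMS-11 overexpresses. D1240A cells are TKO cells with a vector for NSD2 carrying the substitution D1240A, F1295A cells are TKO cells with a vector for NSD2 carrying F1295A, WT cells are TKO cells with a vector for unsubstituted NSD2, and TKO cells have no vector. All 4 groups thus share the WHSC1(+/-) genotype. Each group has 3 biological replicates, 12 libraries of poly(A) RNA in all, and the series asks how mutant NSD2 alters gene expression. Cells with an empty vector were not analysed here, and neither the promoter of the vectors nor whether each line is 1 clone was stated.

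In a dividing cell, CDK1 bound to cyclin B drives entry into mitosis, and Aurora and Polo-like kinases help to build the spindle. The spindle checkpoint holds the anaphase-promoting complex in check until kinetochores are attached, after which securin and cyclin B are degraded and the chromatids part. Most of these genes are transcribed in G2 and M, when the MuvB core with B-MYB (MYBL2) and FOXM1 acts on promoters that carry a cell cycle genes homology region (CHR), often beside CCAAT boxes bound by NF-Y. In quiescent or arrested cells the same core, as part of the DREAM complex, represses them. Their summed mRNA is widely read as a sign of how many cells are cycling, which matters in myeloma, where it marks the proliferative cases.

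Promoters were read from RefSeq on build GRCh38.p14, where 40 of the 47 genes had an entry, each as a window from 250 bases before to 50 bases after a transcript start. AURKA, BIRC5, BUB3, FOXM1, TPX2, TTK and UBE2C had no entry. Letters searched on both strands were TTTGAA and TTCGAA for the CHR, the second of which reads alike on both strands, and CCAAT for the CCAAT box. The 200 bases before the start are printed below for 4 of the genes with the largest falls in WT against TKO, for HMMR, which rose, and for AURKB, which fell and holds no CHR letters. Capitals mark CHR or CCAAT letters on either strand.
KIF4A: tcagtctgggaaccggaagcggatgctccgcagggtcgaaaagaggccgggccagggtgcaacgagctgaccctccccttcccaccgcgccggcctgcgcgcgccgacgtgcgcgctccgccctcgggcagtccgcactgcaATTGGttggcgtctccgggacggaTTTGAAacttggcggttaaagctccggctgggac
TOP2A: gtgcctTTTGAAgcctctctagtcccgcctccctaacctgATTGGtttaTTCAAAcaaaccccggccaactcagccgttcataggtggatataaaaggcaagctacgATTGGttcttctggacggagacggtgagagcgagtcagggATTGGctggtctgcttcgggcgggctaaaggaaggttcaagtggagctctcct
NDC80: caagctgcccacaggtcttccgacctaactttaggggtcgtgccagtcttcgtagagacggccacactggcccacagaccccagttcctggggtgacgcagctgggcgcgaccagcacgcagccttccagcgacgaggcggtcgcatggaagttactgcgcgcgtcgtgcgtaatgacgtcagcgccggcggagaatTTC
BUB1: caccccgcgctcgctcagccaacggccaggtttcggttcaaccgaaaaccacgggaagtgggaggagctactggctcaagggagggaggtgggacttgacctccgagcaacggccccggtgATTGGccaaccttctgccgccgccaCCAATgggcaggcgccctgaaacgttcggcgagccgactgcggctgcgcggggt
HMMR: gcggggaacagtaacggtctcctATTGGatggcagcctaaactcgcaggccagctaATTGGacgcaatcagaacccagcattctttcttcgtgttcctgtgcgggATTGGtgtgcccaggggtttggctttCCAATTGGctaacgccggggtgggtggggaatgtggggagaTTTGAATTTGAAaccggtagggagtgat
AURKB: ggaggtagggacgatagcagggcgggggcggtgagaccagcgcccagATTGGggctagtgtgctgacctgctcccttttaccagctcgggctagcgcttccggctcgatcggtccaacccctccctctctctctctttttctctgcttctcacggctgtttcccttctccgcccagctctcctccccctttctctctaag
KIF4A (chrX:70289904-70290103, plus strand) carries 1 CHR at position -34 and 1 CCAAT box at position -58 from the start. TOP2A (chr17:40417897-40418096, minus strand) carries 2 CHR, at positions -194 and -151. NDC80 (chr18:2571357-2571556, plus strand) holds CHR letters that begin at position -3, so only their first letters are printed, and BUB1 (chr2:110678064-110678263, minus strand) holds TTCGAA just after the start, outside the printed bases. HMMR (chr5:163460432-163460631, plus strand) has 2 abutting CHR and, in CCAATTGG, overlapping CCAAT letters on both strands. AURKB (chr17:8210226-8210425, minus strand) has 1 CCAAT box. In MKI67, not printed, CHR and CCAAT letters overlap, at positions -29 and -24.

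CHR letters were in a window of 31 of the 40 mitosis genes (77.5%), against 15.4% of 9189 tested protein-coding genes with an entry and 7.69% of 26 S phase genes. CCAAT letters were in 75% of the 40, against 43.6% of the tested protein-coding genes and 69.2% of the S phase genes. Both were in 57.5%, against 6.48% of the tested protein-coding genes. Among members with an entry, CHR letters were in 2 of 4 genes that rose in WT against TKO, in 18 of 22 that fell and in 11 of 14 that did neither. The letters describe these windows, and whether they bear on any level below was not tested.

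**Figure D1:**
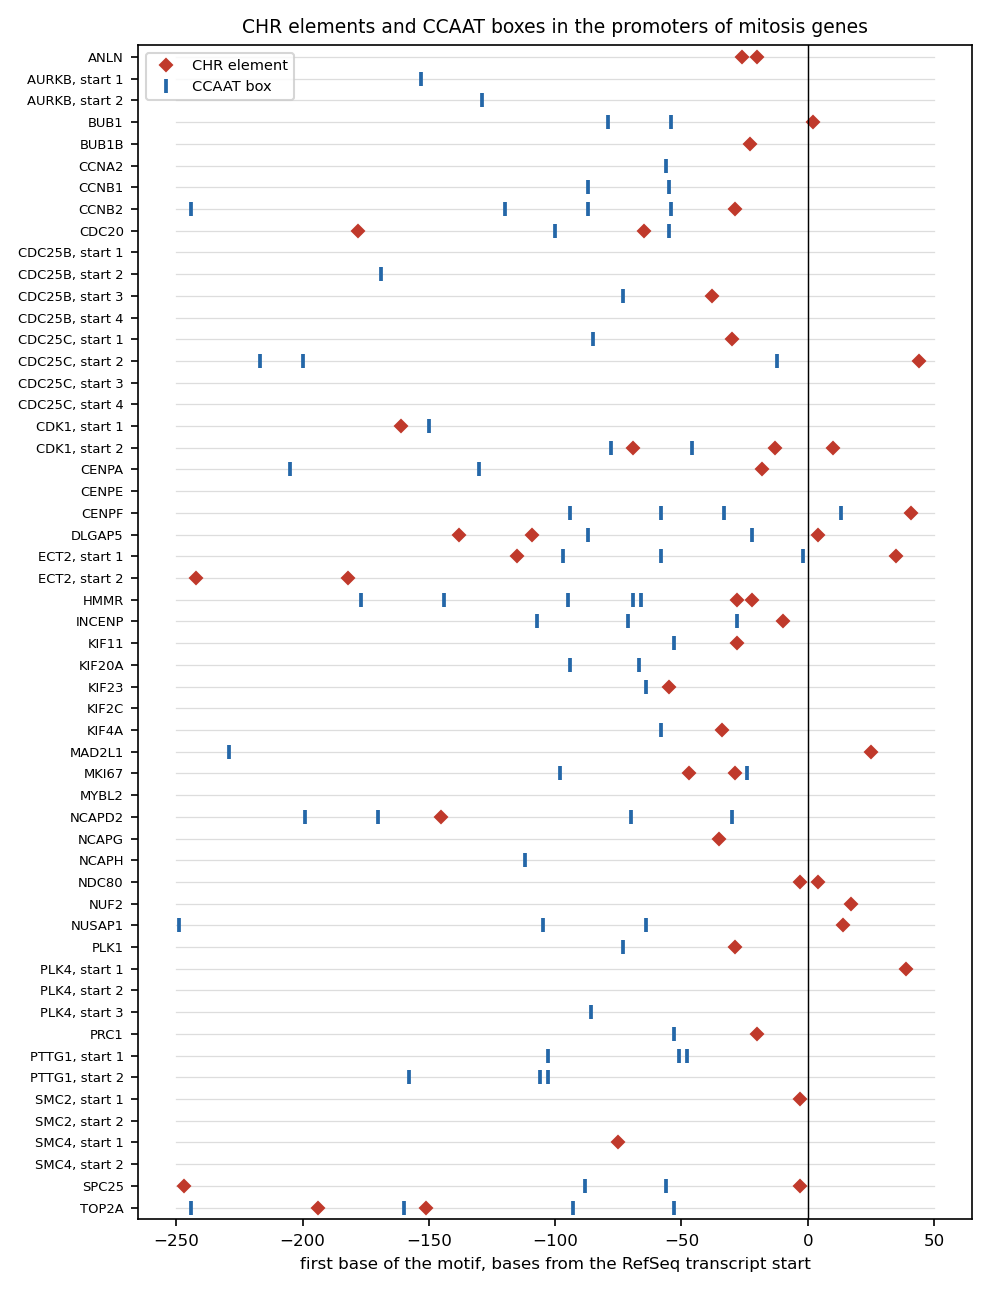
Position of CHR letters (diamonds) and CCAAT letters (bars) in each RefSeq promoter window of the 40 matched mitosis genes, in bases from the transcript start; genes with several starts have a line for each. CHR letters lie in windows of 31 of the 40 genes.

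Levels below are FPKM, fragments scaled by transcript length and by mapped total, after a trimmed-mean rescaling between libraries. The ranges of cell type markers and the shares of ribosomal RNA are instead from FPKM as deposited, without that rescaling. Changes are differences of log2(FPKM + 0.5), with their standard error (SE), and a gene is said to rise or fall where limma gave an adjusted p under 0.05 over all 14391 tested genes. NSD2, the targeted gene, measured 242, 259 and 250.3 FPKM in D1240A, 172, 161 and 159 FPKM in F1295A, 189, 188 and 195 FPKM in WT and 58.9, 58.6 and 62.7 FPKM in TKO, so each vector line lay above TKO and the 3 vector lines differed in NSD2 mRNA. These values sum vector and chromosomal transcripts. D1240A replicate 2 stood apart, with 52.7% of its FPKM sum in ribosomal RNA, against 1.66% to 2.47% in the other libraries, and a log2 scaling of -0.30, against 0.00 to 0.06. Of plasma cell markers, TNFRSF17 (88.7 to 171 FPKM), JCHAIN (1679 to 4114 FPKM), XBP1, PRDM1, IRF4 and MZB1 were high, while SDC1 (0.13 to 4.47 FPKM) and CD38 (0.16 to 1.25 FPKM), which define plasma cells, and SLAMF7 (0.34 to 2.13 FPKM) were low. Of the T cell, monocyte, epithelial, fibroblast, endothelial and erythroid markers checked, none exceeded 2.92 FPKM (EPCAM). Read totals are not stated in these sources and depth is therefore unknown. Precision rests on the spread of 3 libraries within each group, pooled over the 4 groups. D1240A replicate 2 thus also enters the SE of comparisons without D1240A.

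All 47 genes were expressed in all 4 groups, with means over the 12 libraries between 6.83 FPKM (CDC25C) and 386 FPKM (MYBL2). In every vector line most members that changed fell relative to TKO. In D1240A against TKO, 3 of 47 members rose, 25 fell and 19 did neither, where 23.3% of all tested genes rose and 21.2% fell (44.5% called). In F1295A against TKO, 4 rose, 30 fell and 13 did neither, where 23.9% of all tested genes rose and 21.8% fell (45.7% called). In WT against TKO, 5 rose, 26 fell and 16 did neither, where 25.9% of all tested genes rose and 23.9% fell (49.7% called). As shares of the 47, those that fell made up 53.2% in D1240A, 63.8% in F1295A and 55.3% in WT, and those that rose 6.38% in D1240A, 8.51% in F1295A and 10.6% in WT. Without overlap with TKO, 4 members lay above and 28 below in D1240A, 4 and 32 in F1295A, and 6 and 31 in WT. Of all tested genes, 52.5%, 55.7% and 60.4% did not overlap TKO in the same order of lines. By direction, 3972 of the 14391 lay above and 3590 below in D1240A, 4113 and 3903 in F1295A, and 4392 and 4293 in WT. Separation of libraries, given for single genes below, was thus common over the whole table.

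The changes were small for most members. Their median log2 change was -0.13 in D1240A, -0.19 in F1295A and -0.17 in WT, against 0.01, -0.00 and -0.01 over all tested genes in the same 3 comparisons. The 3 comparisons share the TKO libraries, so their values are set side by side and are not independent of each other. In a bulk library, fewer cells in G2 and M and less of these mRNAs per cell cannot be told apart. With the median of 50 neighbouring genes removed from each gene, 1 member rose and 34 fell in D1240A, 1 rose and 37 fell in F1295A, and 1 rose and 31 fell in WT, always against TKO, the one that rose being CDC25B in each. On the values as deposited, where the median of all tested genes moved to -0.12 in D1240A against TKO, CDK1, CENPF, FOXM1 and SMC2 were also called lower in D1240A. On the same values the calls of CDC25B and PTTG1 were lost in D1240A, those of AURKA, BUB3, INCENP, NUF2, PTTG1, TTK and UBE2C in F1295A, and those of BUB3, CCNA2, MYBL2, NUF2, PLK1, PLK4 and UBE2C in WT. With only the compared groups in the fit the F1295A calls of CENPE, INCENP and TTK were lost, and with no filter on low values those of CENPE in F1295A and of BUB3 and PLK4 in WT. Leaving out 1 library also gave calls that the full set lacked, MKI67 and BUB3 higher and the others lower. In D1240A these were MKI67 without D1240A replicate 1, CDK1 and FOXM1 without D1240A replicate 2, BUB3 and MAD2L1 without D1240A replicate 3 and CENPF without TKO replicate 2. In F1295A they were PLK4 and SPC25 without F1295A replicate 2, CDC25C without TKO replicate 1 and SPC25 without TKO replicate 2, and in WT they were BUB1B without WT replicate 2 and AURKA and SPC25 without TKO replicate 2.

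**Figure D2:**
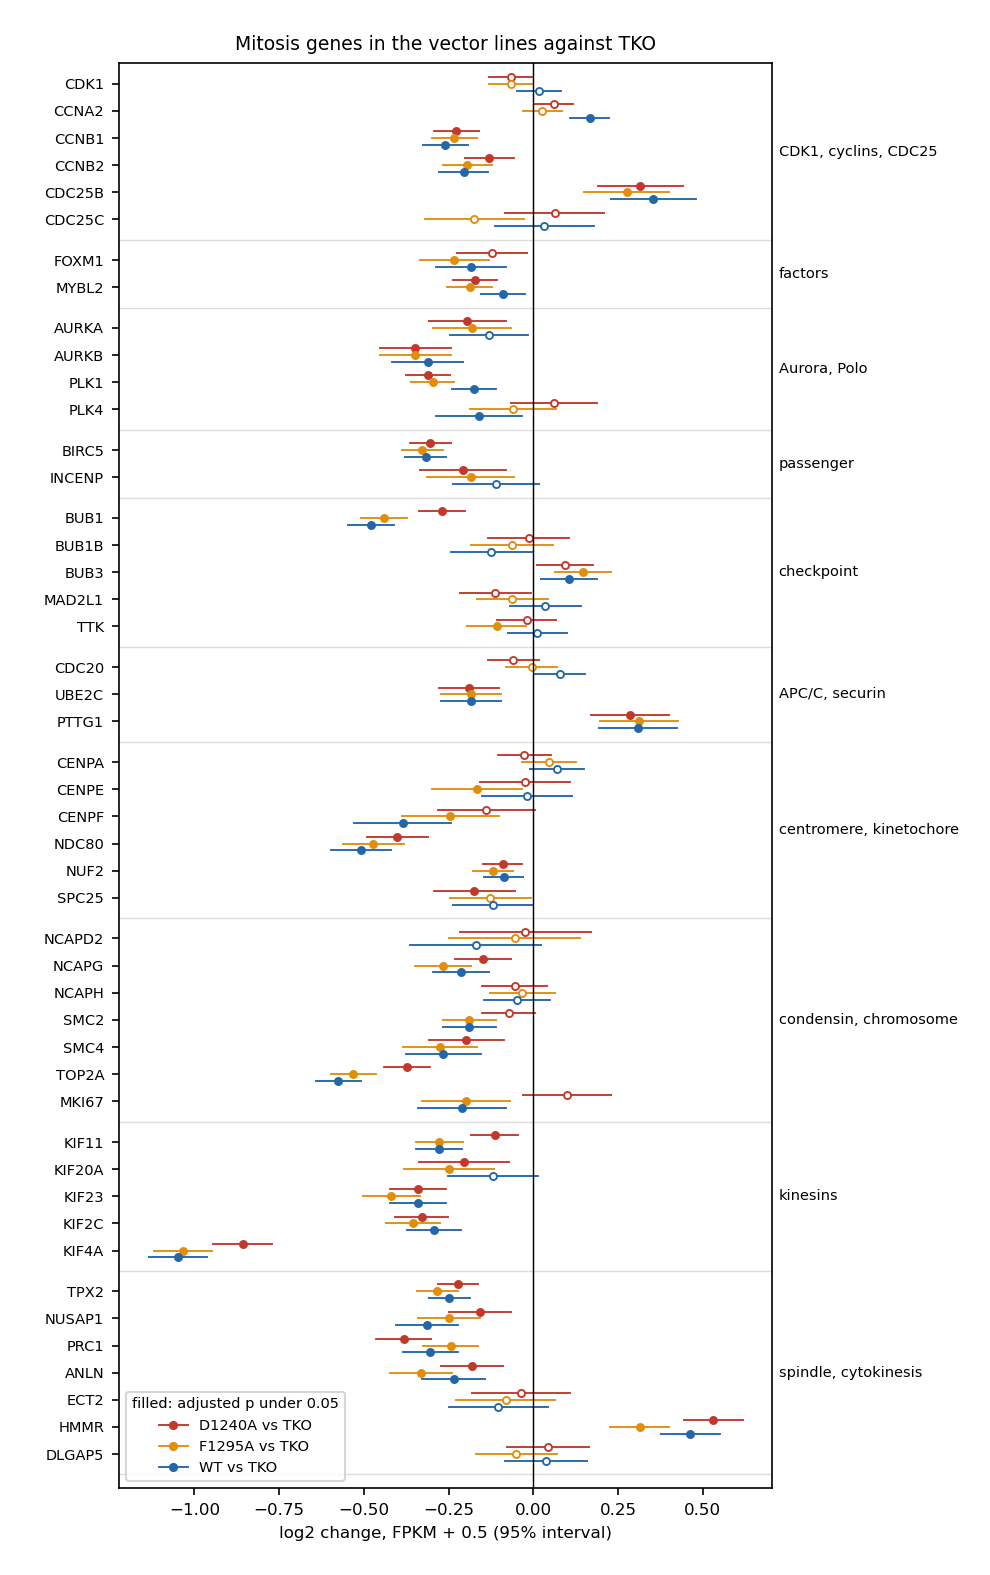
Log2 change of the 47 mitosis genes in D1240A, F1295A and WT against TKO, ordered by role; points are limma estimates, lines their 95% intervals, filled points have an adjusted p under 0.05. Most filled points lie left of 0, KIF4A lies farthest left at -0.86, -1.03 and -1.05, and HMMR, CDC25B and PTTG1 lie right of 0 in all 3.

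CDK1 and its regulators did not move as one. CDK1, the kinase of mitotic entry, averaged 93.3 ± 2.63 FPKM in D1240A, 93.3 ± 1.78 FPKM in F1295A, 98.7 ± 1.87 FPKM in WT and 97.6 ± 1.81 FPKM in TKO (SD, n = 3 each), and was not called against TKO in D1240A (adjusted p = 0.0963), F1295A (0.0981) or WT (0.688). CCNB1, cyclin B1, which activates CDK1 at mitotic entry, measured 144, 141 and 138 FPKM in D1240A, 139, 140.1 and 143 FPKM in F1295A, 139.5, 141 and 134 FPKM in WT and 162, 165 and 170.2 FPKM in TKO. All 9 libraries with a vector lay below all 3 TKO libraries. The log2 change of CCNB1 was -0.23 (SE 0.0302, adjusted p = 8.09e-05) in D1240A, -0.23 (SE 0.0302, adjusted p = 5.85e-05) in F1295A and -0.26 (SE 0.0302, adjusted p = 2.2e-05) in WT. CCNB2, cyclin B2, fell by 0.13, 0.19 and 0.21 on the log2 scale in the same order of lines. CCNA2, cyclin A2, which works in S phase and G2, stood at 70.3, 72.6 and 71.9 FPKM in D1240A, 71.1, 69.0 and 69.6 FPKM in F1295A, 78.4, 76.1 and 76.7 FPKM in WT and 69.6, 68.5 and 67.8 FPKM in TKO. Its WT libraries lay above all others, and it rose in WT against TKO (log2 0.17, SE 0.0262, adjusted p = 0.000238), a call lost with neighbour medians removed. D1240A and F1295A differed from TKO in CCNA2 by log2 0.06 and 0.03 (adjusted p = 0.081 and 0.443).

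CDC25B, the phosphatase that starts CDK1 activation, reached 26.1, 30.3 and 26.01 FPKM in D1240A, 27.8, 25.2 and 26.9 FPKM in F1295A, 29.1, 27.8 and 27.6 FPKM in WT and 21.8, 21.7 and 22.3 FPKM in TKO. Every vector library lay above every TKO library. CDC25B rose in D1240A (log2 0.32, SE 0.0572, adjusted p = 0.000845), in F1295A (log2 0.28) and in WT (log2 0.35, adjusted p = 0.000292). Its relative CDC25C, which completes CDK1 activation and was the lowest member in level, differed by log2 0.06, -0.17 and 0.03 and was not called.

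Of the transcription factors, FOXM1, a forkhead activator of G2 and M genes, had 30.6, 34.7 and 30.5 FPKM in D1240A, 29.8, 30.1 and 28.5 FPKM in F1295A, 30.7, 30.6 and 30.3 FPKM in WT and 34.8, 35.2 and 34.1 FPKM in TKO. F1295A and WT lay below TKO in all libraries, while D1240A replicate 2 lay within the TKO values. FOXM1 fell in F1295A (log2 -0.23, adjusted p = 0.00168) and WT (log2 -0.18, adjusted p = 0.00669), and its D1240A difference was -0.12 (adjusted p = 0.056), called lower in 6 of 18 alternatives, among them that without D1240A replicate 2. MYBL2, the MYB protein that joins MuvB in S phase and the member with the most mRNA per length, measured 382, 363 and 365 FPKM in D1240A, 369, 361 and 366 FPKM in F1295A, 405, 388 and 381 FPKM in WT and 413, 419 and 417 FPKM in TKO. The 3 vector lines lay below TKO in every library. MYBL2 fell by 0.17 in D1240A, 0.19 in F1295A and 0.09 in WT on the log2 scale, and the WT call was lost without WT replicate 2 or 3 or TKO replicate 2 or 3. It was also lost with neighbour medians removed, where the WT change was -0.022.

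Among the kinases of the spindle, PLK1, the Polo-like kinase of mitotic entry and spindle assembly, stood at 105, 101 and 102 FPKM in D1240A, 106, 102 and 105 FPKM in F1295A, 116, 113 and 109.7 FPKM in WT and 127, 126 and 129 FPKM in TKO. D1240A and F1295A libraries were lowest, WT libraries lay between them and TKO, and no group overlapped TKO. PLK1 fell by 0.31 in D1240A (adjusted p = 4.58e-06), 0.30 in F1295A and 0.17 in WT (adjusted p = 0.000369) on the log2 scale. AURKB, the kinase of the chromosomal passenger complex, reached 23.5, 24.4 and 23.4 FPKM in D1240A, 22.6, 24.04 and 24.7 FPKM in F1295A, 23.1, 26.1 and 23.95 FPKM in WT and 30.6, 30.7 and 29.9 FPKM in TKO. All vector libraries lay below all TKO libraries, and AURKB fell by 0.35, 0.35 and 0.31 in D1240A, F1295A and WT. AURKA, the centrosomal Aurora kinase, fell in D1240A (log2 -0.19) and in F1295A (log2 -0.18), while WT differed by -0.13 (adjusted p = 0.0551). The F1295A call of AURKA was lost without F1295A replicate 3, or without TKO replicate 3. PLK4, the kinase of centriole duplication, fell in WT (log2 -0.16, adjusted p = 0.0381) and was not called in D1240A or F1295A. The WT call of PLK4 was lost without any 1 of WT replicates 1 and 3 or the 3 TKO replicates.

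BIRC5 (survivin) and INCENP are the partners of AURKB in the chromosomal passenger complex. BIRC5, which targets the complex to centromeres, had 87.8, 85.7 and 87.8 FPKM in D1240A, 84.8, 85.6 and 86.8 FPKM in F1295A, 86.5, 85.6 and 86.7 FPKM in WT and 107, 105 and 111 FPKM in TKO. The 9 vector libraries lay close together and below all TKO libraries. BIRC5 fell by 0.30 in D1240A (SE 0.0274, adjusted p = 3.35e-06), 0.33 in F1295A (adjusted p = 1.59e-06) and 0.32 in WT (adjusted p = 1.69e-06). INCENP, the scaffold of the complex, measured 28.5, 30.1 and 30.3 FPKM in D1240A, 33.6, 28.9 and 28.1 FPKM in F1295A, 31.5, 32.05 and 31.7 FPKM in WT and 35.2, 33.1 and 34.7 FPKM in TKO. Its F1295A replicate 1 lay among the TKO values. INCENP fell in D1240A (log2 -0.21, adjusted p = 0.0123) and F1295A (log2 -0.18, adjusted p = 0.0217), and in WT it differed by -0.11 (adjusted p = 0.141). The F1295A call of INCENP was lost without any 1 of F1295A replicates 2 and 3 or TKO replicates 1 and 3, and the D1240A call was lost with neighbour medians removed.

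The 5 spindle checkpoint genes split. BUB1, the kinase that recruits checkpoint proteins to kinetochores, stood at 96.5, 98.1 and 99.2 FPKM in D1240A, 88.1, 89.1 and 83.9 FPKM in F1295A, 82.4, 86.9 and 84.6 FPKM in WT and 116, 118 and 120.3 FPKM in TKO. TKO libraries were highest, D1240A libraries next, and F1295A and WT libraries lowest, and D1240A overlapped with none of the other groups. BUB1 fell by 0.27 in D1240A (adjusted p = 2.53e-05), 0.44 in F1295A (adjusted p = 3.77e-07) and 0.48 in WT (SE 0.031, adjusted p = 1.58e-07). BUB3, the WD-repeat partner that brings BUB1 and BUBR1 to kinetochores, reached 155, 149.8 and 139.9 FPKM in D1240A, 152, 149.8 and 159.7 FPKM in F1295A, 149, 150.1 and 149.6 FPKM in WT and 136, 139 and 141 FPKM in TKO. F1295A and WT libraries lay above all TKO libraries, and D1240A overlapped TKO. BUB3 rose in F1295A (log2 0.15, adjusted p = 0.00741) and in WT (log2 0.11, adjusted p = 0.0357), the WT call being lost without any 1 of the 3 WT libraries or TKO replicates 1 and 2. BUB1B (BUBR1), MAD2L1 (MAD2) and TTK (MPS1), which build and regulate the checkpoint complex, were not called in D1240A (log2 -0.01, -0.11 and -0.02) or WT (log2 -0.12, 0.04 and 0.01). TTK fell in F1295A by 0.11 (adjusted p = 0.0439), a call lost without any 1 of F1295A replicates 1 and 3 or the 3 TKO libraries.

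At the exit from mitosis, UBE2C, the ubiquitin-conjugating enzyme of the anaphase-promoting complex, had 223, 216 and 230.5 FPKM in D1240A, 213, 233 and 226 FPKM in F1295A, 228, 218 and 226 FPKM in WT and 244, 258 and 261 FPKM in TKO. All vector libraries lay below TKO. UBE2C fell by 0.19, 0.18 and 0.18 in D1240A, F1295A and WT. PTTG1, securin, the inhibitor of separase that the complex destroys at anaphase, measured 83.5, 75.1 and 75.9 FPKM in D1240A, 76.6, 84.6 and 77.9 FPKM in F1295A, 77.1, 81.1 and 79.98 FPKM in WT and 60.4, 66.2 and 65.7 FPKM in TKO. All 9 vector libraries lay above all TKO libraries, opposite to UBE2C. PTTG1 rose by log2 0.29 in D1240A, 0.31 in F1295A and 0.31 in WT (adjusted p = 0.00094, 0.000437 and 0.000423). PTTG1 has near-identical processed copies in the genome, and the rule for sharing reads with them was not stated. CDC20, the activator that brings securin and cyclin B to the complex, stood at 87.7, 87.8 and 84.5 FPKM in D1240A, 90.02, 86.8 and 93.1 FPKM in F1295A, 97.6, 95.7 and 92.5 FPKM in WT and 88.7, 89.6 and 92.6 FPKM in TKO. D1240A libraries lay below all WT and all TKO libraries, and the other groups overlapped TKO. No difference from TKO was called for CDC20 (log2 -0.06, -0.01 and 0.08 in D1240A, F1295A and WT).

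Of the centromere and kinetochore genes, NDC80, which couples kinetochores to microtubules, reached 31.3, 30.95 and 31.2 FPKM in D1240A, 30.7, 29.6 and 28.6 FPKM in F1295A, 29.5, 29.9 and 27.3 FPKM in WT and 40.1, 41.4 and 42.4 FPKM in TKO. TKO libraries lay well above all 9 vector libraries. NDC80 fell by 0.40 in D1240A (adjusted p = 9.2e-06), 0.47 in F1295A (adjusted p = 2.08e-06) and 0.51 in WT (SE 0.0408, adjusted p = 9.28e-07). Its partners in the same complex had smaller changes, a difference that was not tested. NUF2 fell by 0.09, 0.12 and 0.09, and SPC25 fell in D1240A by 0.17 and differed by -0.13 in F1295A and -0.12 in WT without a call. The SPC25 call was lost without D1240A replicate 2 or TKO replicate 1, the NUF2 call in D1240A without TKO replicate 2, and that in WT without WT replicate 2 or 3 or TKO replicate 2. CENPF, a large kinetochore and nuclear matrix protein, had 64.2, 61.5 and 68.3 FPKM in D1240A, 60.3, 61.4 and 58.4 FPKM in F1295A, 51.7, 58.9 and 52.8 FPKM in WT and 72.3, 64.9 and 76.9 FPKM in TKO. F1295A and WT libraries lay below all TKO libraries and overlapped each other, and D1240A overlapped TKO. CENPF fell in F1295A (log2 -0.24, adjusted p = 0.00923) and WT (log2 -0.39, adjusted p = 0.000415), and differed by -0.14 in D1240A (adjusted p = 0.107). CENPE, the kinesin that moves chromosomes to the metaphase plate, was not called in D1240A (log2 -0.02) or WT (log2 -0.02) and fell in F1295A by 0.17 (adjusted p = 0.0438), a call lost without any 1 of F1295A replicates 1 and 3 or TKO replicates 2 and 3. CENPA, the histone H3 variant of centromeres, differed by log2 -0.03, 0.05 and 0.07 and was not called.

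Among genes of chromosome structure, TOP2A, the topoisomerase that untangles sister chromatids, measured 108, 111 and 109 FPKM in D1240A, 102, 97.98 and 94.2 FPKM in F1295A, 93.8, 96.6 and 94.6 FPKM in WT and 143, 142 and 140.4 FPKM in TKO. All D1240A libraries lay above all F1295A and WT libraries and below all TKO libraries. TOP2A fell by 0.37 in D1240A (adjusted p = 1.52e-06), 0.53 in F1295A (adjusted p = 7.36e-08) and 0.58 in WT (SE 0.0306, adjusted p = 3.23e-08). NCAPG, a regulatory subunit of condensin I, stood at 23.8, 25.1 and 25.7 FPKM in D1240A, 22.7, 22.9 and 23.1 FPKM in F1295A, 23.7, 23.7 and 23.9 FPKM in WT and 26.9, 27.3 and 28.8 FPKM in TKO. The vector libraries lay below TKO, and NCAPG fell by 0.15, 0.27 and 0.21. SMC4, an ATPase subunit of both condensins, fell by 0.20, 0.28 and 0.27, and its partner SMC2 fell by 0.19 in F1295A and 0.19 in WT. The other condensin I subunits, NCAPD2 and NCAPH, were not called, with WT differences of -0.17 and -0.05. MKI67, the surfactant of mitotic chromosomes known as the Ki-67 antigen, reached 77.8, 89.1 and 86.3 FPKM in D1240A, 73.9, 67.9 and 63.8 FPKM in F1295A, 66.5, 66.6 and 70.3 FPKM in WT and 80.5, 79.5 and 75.7 FPKM in TKO. It fell in F1295A (log2 -0.20, adjusted p = 0.0169) and WT (log2 -0.21, adjusted p = 0.0108), while D1240A overlapped TKO (log2 0.10, adjusted p = 0.194). The F1295A call of MKI67 was lost without F1295A replicate 3 or TKO replicate 1.

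The 5 KIF genes among the members all fell in D1240A and in F1295A, and 4 of 5 fell in WT. CENPE, a kinesin given above with the kinetochore genes, was called in F1295A only. KIF4A, the chromokinesin that shapes chromosome arms and the midzone (ENSG00000090889, chrX:70290090-70420832), had 20.9, 19.7 and 19.7 FPKM in D1240A, 17.7, 17.2 and 18.3 FPKM in F1295A, 17.02, 18.1 and 17.4 FPKM in WT and 37.3, 36.8 and 36.2 FPKM in TKO. All vector libraries lay far below all TKO libraries. KIF4A fell by 0.86 in D1240A (SE 0.0394, adjusted p = 1.28e-08), 1.03 in F1295A (adjusted p = 2.3e-09) and 1.05 in WT (adjusted p = 1.57e-09), the largest change of any member. KIF23 (MKLP1), the kinesin of centralspindlin, measured 25.9, 27.2 and 27.6 FPKM in D1240A, 25.1, 26.3 and 25.04 FPKM in F1295A, 27.3, 26.96 and 26.6 FPKM in WT and 32.9, 34.8 and 35.02 FPKM in TKO. All vector libraries lay below TKO, and KIF23 fell by 0.34, 0.42 and 0.34. KIF2C (MCAK), which removes tubulin from microtubule ends, fell by 0.33, 0.36 and 0.29, and KIF11 (Eg5), which pushes the spindle poles apart, by 0.11, 0.28 and 0.28. KIF20A (MKLP2), which carries the passenger complex to the midzone, fell by 0.20 in D1240A and 0.25 in F1295A, and differed by -0.12 in WT (adjusted p = 0.124). The D1240A call of KIF20A was lost without D1240A replicate 3 or TKO replicate 3.

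Among 7 genes of the spindle and cytokinesis, TPX2, the activator of Aurora A on the spindle, stood at 87.8, 86.9 and 88.05 FPKM in D1240A, 86.4, 83.9 and 81.6 FPKM in F1295A, 87.1, 86.2 and 84.9 FPKM in WT and 102, 101 and 104 FPKM in TKO. The vector libraries lay below TKO, and TPX2 fell by 0.22, 0.28 and 0.25. PRC1, the crosslinker of midzone microtubules, reached 65.4, 63.7 and 62.3 FPKM in D1240A, 71.6, 72.2 and 67.3 FPKM in F1295A, 64.5, 69.5 and 68.4 FPKM in WT and 83.4, 82.3 and 84.3 FPKM in TKO. All 9 vector libraries lay below TKO, and PRC1 fell by 0.38, 0.24 and 0.30. NUSAP1, a spindle microtubule binder, fell by 0.16, 0.25 and 0.31, and ANLN, anillin of the cleavage furrow, by 0.18, 0.33 and 0.24. HMMR, a spindle-associated protein also known as the hyaluronan receptor RHAMM (ENSG00000072571), had 28.8, 30.3 and 30.3 FPKM in D1240A, 25.2, 26.5 and 25.2 FPKM in F1295A, 29.2, 27.9 and 28.2 FPKM in WT and 21.1, 20.8 and 19.6 FPKM in TKO. All vector libraries lay above all TKO libraries, with F1295A between TKO and the other lines. HMMR rose by log2 0.53 in D1240A (adjusted p = 6.95e-07), 0.31 in F1295A (adjusted p = 4.68e-05) and 0.46 in WT (SE 0.0396, adjusted p = 1.57e-06). ECT2, an exchange factor that acts in cytokinesis, and DLGAP5 (HURP), a stabiliser of kinetochore fibres, were not called, with WT differences of -0.10 and 0.04.

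**Figure D3:**
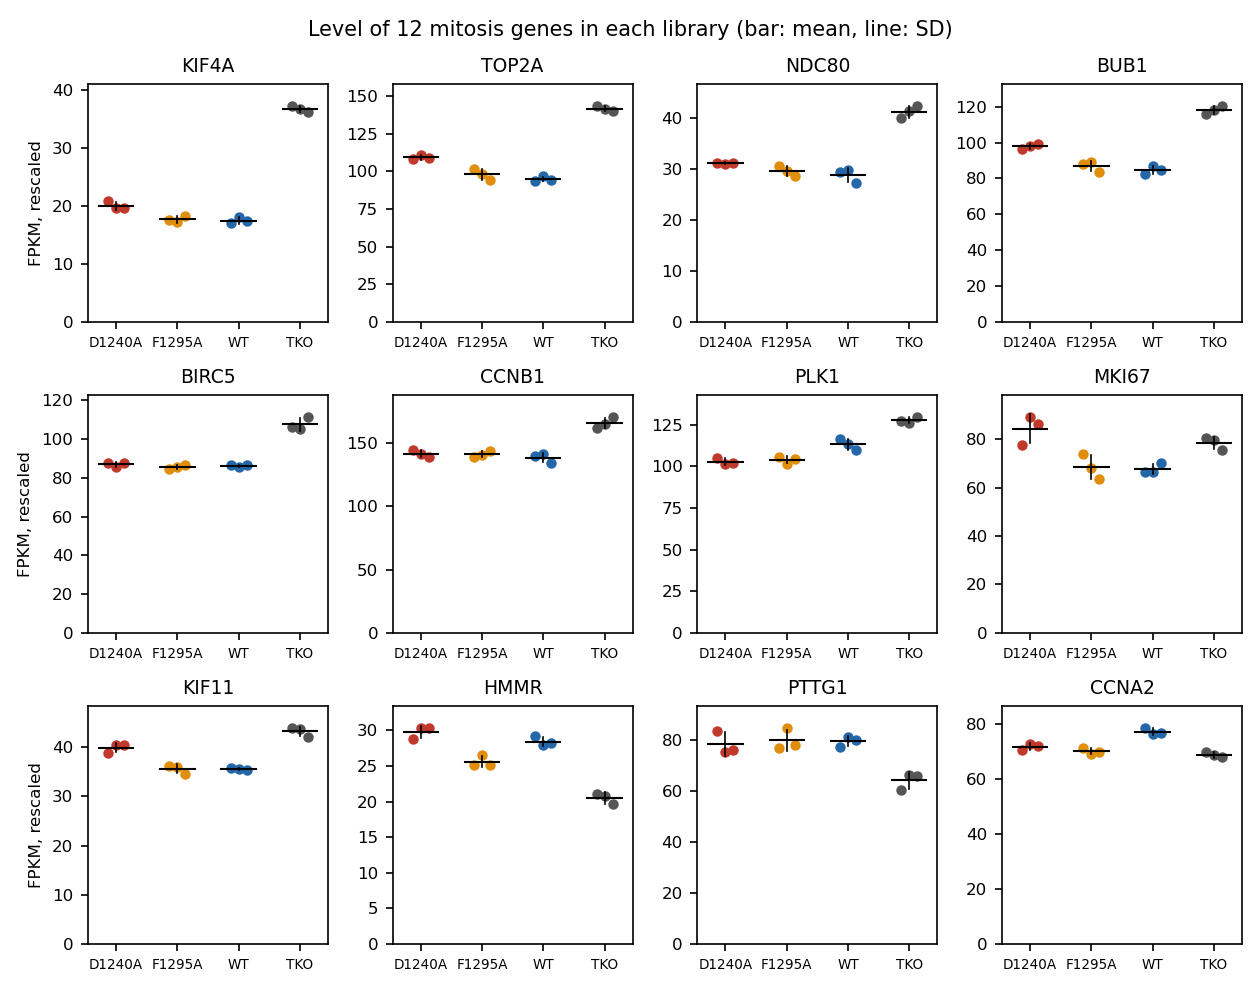
Rescaled FPKM of 12 mitosis genes in each library of D1240A, F1295A, WT and TKO; points are libraries, horizontal bars means and vertical lines SD (n = 3). KIF4A, TOP2A, NDC80 and BUB1 are highest in TKO, and HMMR and PTTG1 lowest in TKO, without overlap.

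Of the 5 members that rose in WT against TKO, 3 lie in stretches of chromosome where most of the 50 neighbouring tested genes rose too. HMMR and PTTG1 (chr5:160421822-160428744) both lie on chromosome 5, and their windows of 50 neighbouring tested genes overlap. In WT against TKO, 43 of 50 neighbours of HMMR and 41 of 50 of PTTG1 rose, with medians of 0.57 and 0.51, against log2 0.46 for HMMR and 0.31 for PTTG1 themselves. Around BUB3, on chromosome 10 (chr10:123154277-123170467), 33 of 50 neighbours rose with a median of 0.35, against 0.11 for BUB3. MKI67 lies in the same stretch of chromosome 10 (chr10:128096659-128126385), yet fell by 0.21 where its neighbours had a median of 0.34. In D1240A against TKO the change of HMMR was 0.53 beside a neighbour median of 0.53, and in F1295A it was 0.31 beside 0.59. PTTG1 had 0.29 beside 0.57 in D1240A and 0.31 beside 0.57 in F1295A.

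KIF4A lies on the X chromosome, where 276 of 469 tested genes fell in WT against TKO, with a median log2 change of -0.43. Of its 50 neighbours, 32 fell, with a median of -0.51, and 46 of 50 lay above KIF4A. In D1240A 283 and in F1295A 286 of the 469 genes of the X chromosome fell against TKO. CDC25B, on chromosome 20, had neighbours with a median of 0.07 in WT against TKO, 14 of them rising and 14 falling, and 7 of 50 lay above its own change of 0.35. CCNA2, on chromosome 4, rose by 0.17 beside a neighbour median of 0.13, with 20 of its 50 neighbours rising and 7 falling. With neighbour medians removed its change was 0.035. TOP2A, NDC80 and BUB1 had neighbour medians of -0.01, -0.01 and -0.02. Whether copy number differs between the lines was not tested, and with neighbour medians removed BUB3 and PTTG1 turned negative in all 3 comparisons with TKO, as did HMMR in F1295A and WT.

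**Figure D4:**
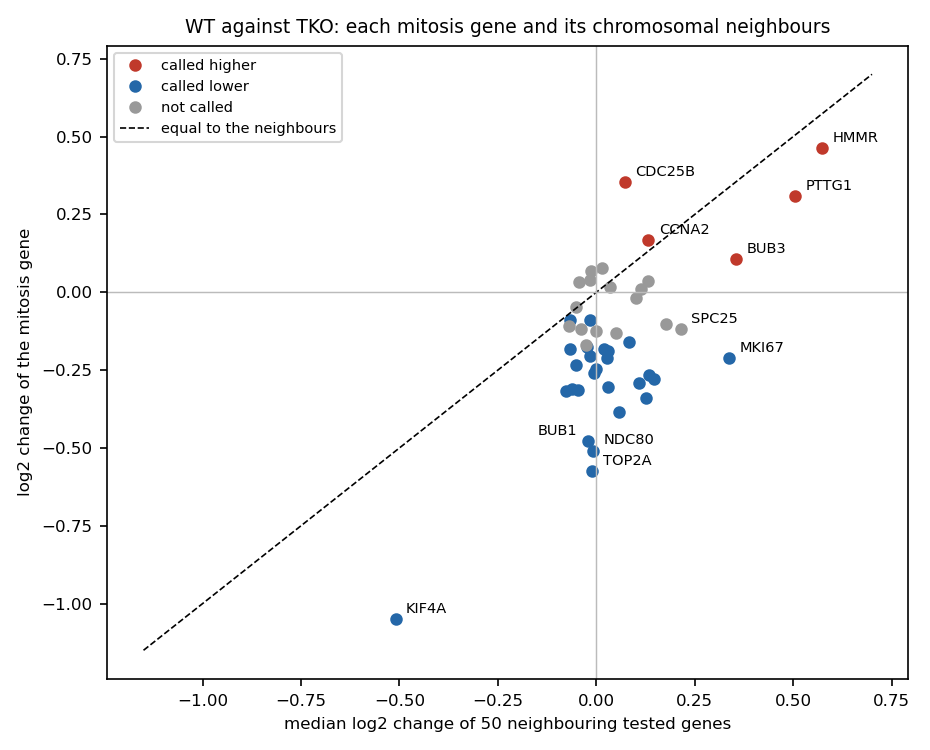
Log2 change of each mitosis gene in WT against TKO (vertical) over the median log2 change of its 50 neighbouring tested genes (horizontal); the dashed line marks equality and colours the call. Most members lie below the line near a neighbour median of 0, HMMR, PTTG1 and BUB3 lie at the right under the line, KIF4A lies at the far left, and CDC25B lies above it.

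The substitutions were compared with unsubstituted NSD2 next. In D1240A against WT, 9 members rose, 3 fell and 35 did neither, where 19.2% of all tested genes were called, 8.22% higher and 10.9% lower. Those that rose make up 19.1% of the 47 and those that fell 6.38%. The genes that rose were PLK4, BUB1, CENPF, SMC2, TOP2A, MKI67, KIF11, KIF4A and NUSAP1, and those that fell were CCNA2, PLK1 and CDC20. The median log2 change of the 47 was 0.00, against 0.01 over all tested genes.

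MKI67 showed the largest difference, 84.4 ± 5.89 FPKM in D1240A and 67.8 ± 2.16 FPKM in WT (log2 0.31, SE 0.0592, adjusted p = 0.00385). All 3 D1240A libraries lay above all 3 WT libraries. BUB1 averaged 97.9 ± 1.32 FPKM in D1240A and 84.6 ± 2.21 FPKM in WT (log2 0.21, adjusted p = 0.000886). TOP2A averaged 109 ± 1.63 FPKM in D1240A and 95.01 ± 1.45 FPKM in WT (log2 0.20, adjusted p = 0.000977). KIF11, with 38.9, 40.4 and 40.4 FPKM in D1240A, 36.3, 35.9 and 34.6 FPKM in F1295A, 35.8, 35.5 and 35.4 FPKM in WT and 43.9, 43.7 and 42.1 FPKM in TKO, rose by 0.16 (adjusted p = 0.00404). KIF4A rose by 0.19 (adjusted p = 0.00611). For each of these 5 genes the D1240A libraries lay above all WT libraries. In all, 12 members lay above WT and 7 below without overlap, where 35.5% of all tested genes did not overlap. Of the 14391 tested genes, 2415 lay above and 2688 below.

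PLK4 rose by 0.22, CENPF by 0.25, NUSAP1 by 0.16 and SMC2 by 0.12 (adjusted p = 0.0213, 0.022, 0.0221 and 0.0434). PLK1 fell in D1240A against WT (log2 -0.14, adjusted p = 0.00748), as did CDC20 (log2 -0.14, adjusted p = 0.0165) and CCNA2 (log2 -0.11, adjusted p = 0.0162). In all 3 the D1240A libraries lay below all WT libraries. The genes that rose have a median longest transcript of 4860 bases and those that fell 2227 bases, and over all tested protein-coding genes the same medians are 3857 and 2777 bases. The part of transcript length in these calls was not tested.

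Without D1240A replicate 2, whose RNA classes stood apart, 6 members rose and 4 fell in D1240A against WT, 9 of the 12 calls among them. On the values as deposited, in which that library's scaling is not removed, limma called 0 members and 12 had an unadjusted p under 0.05, where 1608 of 14450 tested genes were called, while as deposited but without it, an alternative chosen after seeing the data, 6 rose and 4 fell. Without WT replicate 1, 7 members were called, 6 of them among the 12. By gene, PLK4 was lost without D1240A replicate 2, WT replicate 1 or WT replicate 3, NUSAP1 without these or D1240A replicate 3, CENPF without D1240A replicate 3, WT replicate 1 or WT replicate 3, CDC20 without D1240A replicate 3, WT replicate 1 or WT replicate 2, CCNA2 without WT replicate 1, and SMC2 without any 1 of the 6 libraries. MKI67, BUB1, TOP2A, KIF11, KIF4A and PLK1 were called whichever library was left out.

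In F1295A against WT, 1 of 47 members was called, where 2.71% of all tested genes were called, 0.896% higher and 1.81% lower. CCNA2 averaged 69.9 ± 1.06 FPKM in F1295A and 77.1 ± 1.18 FPKM in WT, and fell by 0.14 (SE 0.0262, adjusted p = 0.0176). Its F1295A libraries lay below all WT libraries. Among the 47, 1 lay above WT and 12 below without overlap, where 22.9% of all tested genes did not overlap. Of the 14391 tested genes, 1474 lay above and 1825 below. No member rose, and at an unadjusted p under 0.05 by limma, 10 members lay lower and 0 higher, where 16.2% of all tested genes passed that threshold in either direction. PLK1 came closest among the rest (log2 -0.12, adjusted p = 0.0508), then HMMR (log2 -0.15, adjusted p = 0.0774). The 95% intervals of all 47 differences lie between -0.35 and 0.31 on the log2 scale. The CCNA2 call was lost, leaving 0 members, without any 1 of F1295A replicates 2 and 3 or WT replicates 1 and 3.

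Set against each other, D1240A and F1295A differed in 7 of 47 members, where 6.09% of all tested genes were called, 3% higher and 3.09% lower in D1240A. BUB1, TOP2A, MKI67, KIF11, KIF4A and HMMR were higher in D1240A, and PRC1 was lower. MKI67 averaged 84.4 ± 5.89 FPKM in D1240A and 68.5 ± 5.12 FPKM in F1295A (log2 0.30, adjusted p = 0.016). HMMR averaged 29.8 ± 0.852 FPKM in D1240A and 25.6 ± 0.759 FPKM in F1295A (log2 0.22, adjusted p = 0.0116). BUB1, TOP2A, KIF11 and KIF4A differed by 0.17, 0.16, 0.16 and 0.18. In all 6, every D1240A library lay above every F1295A library. Among the 47, 17 lay higher in D1240A and 1 lower without overlap, where 24.0% of all tested genes did not overlap. Of the 14391 tested genes, 1724 lay higher in D1240A and 1733 lower.

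PRC1 averaged 63.8 ± 1.52 FPKM in D1240A and 70.4 ± 2.69 FPKM in F1295A (log2 -0.14, adjusted p = 0.0492), a call lost in 13 of 18 alternatives. The 6 genes that rose have a median longest transcript of 4604 bases, where all tested protein-coding genes called higher have 4107 bases and those called lower 2071 bases. Without D1240A replicate 2 only 2 of the 7 calls were left, without D1240A replicate 3 or F1295A replicate 2 the count was 3, and without F1295A replicate 3 it was 4. Over all tested genes 877 were called with all libraries, 376 without D1240A replicate 2, 419 without D1240A replicate 3, 310 without F1295A replicate 2 and 352 without F1295A replicate 3. BUB1 and HMMR were called whichever of the 6 libraries was left out, while MKI67, TOP2A, KIF11 and KIF4A each lost their call without D1240A replicate 2 and without at least 1 other library. NSD2 mRNA itself was log2 0.61 higher in D1240A than in F1295A and 0.39 higher than in WT, and its part in these differences was not tested.

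**Figure D5:**
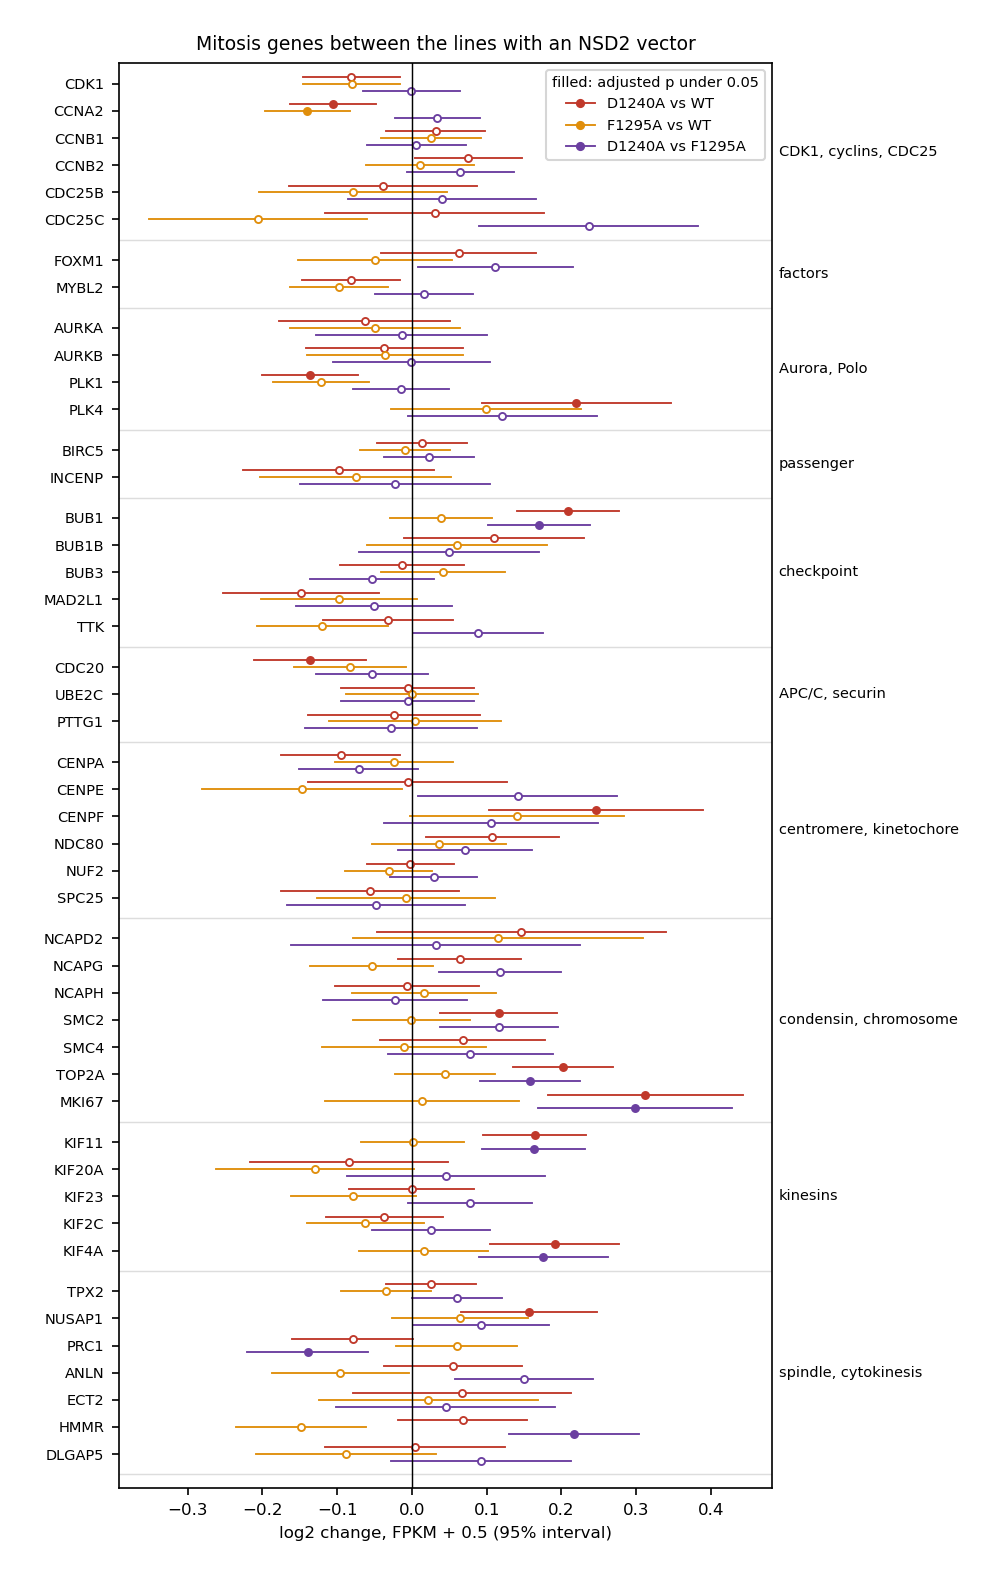
Log2 change of the 47 mitosis genes in D1240A against WT, F1295A against WT and D1240A against F1295A, ordered by role; points are limma estimates, lines 95% intervals, filled points have an adjusted p under 0.05. MKI67, BUB1, TOP2A, KIF11 and KIF4A have filled points right of 0 for D1240A against both other lines, and CCNA2 alone has a filled point for F1295A against WT.

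Other genes of mitosis, 112 in 6 lists, gave the surroundings of the 47. In D1240A against TKO 14 of them rose and 41 fell, in F1295A against TKO 9 rose and 56 fell, and in WT against TKO 10 rose and 51 fell. Of all tested genes 23.3% rose and 21.2% fell in D1240A, 23.9% rose and 21.8% fell in F1295A, and 25.9% rose and 23.9% fell in WT. Of 22 other spindle, kinesin and cytokinesis genes, 1 rose and 16 fell in WT against TKO, with a median log2 change of -0.25. CKAP2, a spindle microtubule protein, was the one that rose, with 77.1 ± 1.77 FPKM in WT and 48.4 ± 0.423 FPKM in TKO (log2 0.66, adjusted p = 1.99e-08), beside a neighbour median of 0.49. Of 34 other centromere, kinetochore and checkpoint genes, 0 rose and 14 fell in WT against TKO, and MIS18A, which helps to load CENPA, fell most, with 31.05 ± 1.54 FPKM in WT and 52.6 ± 0.509 FPKM in TKO (log2 -0.75, neighbour median -0.42). NCAPG2, a subunit of condensin II, had 44.1 ± 0.0258 FPKM in WT and 69.9 ± 0.47 FPKM in TKO (log2 -0.66, neighbour median -0.25). Of 11 genes of the DREAM and MuvB complexes, 3 rose and 4 fell in WT against TKO. LIN37, a MuvB subunit, had 15.4 ± 0.98 FPKM in WT and 10.4 ± 0.629 FPKM in TKO (log2 0.55, adjusted p = 4.71e-05, neighbour median 0.15). Of 17 other genes of the anaphase-promoting complex and its regulators, 2 rose and 6 fell.

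In D1240A against WT, 15 of the 112 rose and 4 fell, where 8.22% of all tested genes rose and 10.9% fell. CCNF, cyclin F, had 29.7 ± 0.654 FPKM in D1240A and 24.9 ± 0.681 FPKM in WT (log2 0.25, adjusted p = 0.000401), and CENPO, a kinetochore subunit, had 22.6 ± 1.201 FPKM in D1240A and 18.2 ± 1.31 FPKM in WT (log2 0.31). ANAPC11, the RING subunit of the anaphase-promoting complex, fell with 123 ± 6.93 FPKM in D1240A and 149 ± 8.998 FPKM in WT (log2 -0.27), as did CKS2, a CDK1-binding protein (log2 -0.15). In F1295A against WT none of the 112 was called by limma, and 12 had an unadjusted p under 0.05, 4 higher and 8 lower, where 16.2% of all tested genes did. In D1240A against F1295A 9 rose and 0 fell, with 27 higher and 3 lower at an unadjusted p under 0.05, where 6.09% of all tested genes were called and 22.6% passed the unadjusted threshold.

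Genes of S phase, which are under E2F control rather than that of CHR elements, were compared as well. Of 32 measured, 4 rose and 16 fell in D1240A, 2 rose and 17 fell in F1295A, and 4 rose and 21 fell in WT against TKO, beside the shares of all tested genes just given, with a median log2 change of -0.15 in WT. POLA1, the catalytic subunit of DNA polymerase alpha on the X chromosome, had 8.03 ± 0.207 FPKM in WT and 15.3 ± 0.623 FPKM in TKO (log2 -0.89), beside a neighbour median of -0.88. CDT1 and GINS4, which license and start replication, rose in WT against TKO by log2 0.39 and 0.35, beside neighbour medians of 0.07 and 0.04. In D1240A against WT 6 of the 32 rose and 0 fell, with 11 higher and 0 lower at an unadjusted p under 0.05, where 8.22% of all tested genes rose and 32.4% passed the unadjusted threshold. POLE, a polymerase epsilon subunit, differed by log2 0.21 in D1240A against WT. In F1295A against WT 1 of the 32 rose and 0 fell, where 2.71% of all tested genes were called. At an unadjusted p under 0.05 by limma, 7 lay higher and 0 lower, where 16.2% of all tested genes passed. In D1240A against F1295A 0 of the 32 were called, where 6.09% of all tested genes were. There 3 lay higher and 0 lower unadjusted, where 22.6% of all tested genes passed.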

How the data were processed

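The authors deposited 1 table of FPKM values per gene and library, a unit read from the values. Per the submitters' processing notes, the tools included Trimmomatic 0.36, FastQC 0.11.4, STAR 2.7.9a, RSEM 1.3.1 and DESeq2, with build GRCh38. For the annotation release and the strandedness of counting, the sources used here give nothing. All 12 libraries were used, and 7089 structural RNA features were left out. Scaling between libraries used a trimmed mean (30% trimmed each side, genes averaging at least 1 FPKM), so a change shared by all genes cannot be seen. Genes with at least 0.5 FPKM in 3 libraries were fitted with limma 3.58.1 (R 4.3.3) in 1 fit, with 1 factor, the group, and variances moderated along a trend. The pseudocount of 0.5 understates changes of low genes. P-values were adjusted by Benjamini-Hochberg over all tested genes. Members and lists were chosen with earlier results of these data known.

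Library values are given for the 2 members of each role group with the smallest adjusted p and for those called against most others; MKI67 and KIF11 were added after their values were seen. Other genes named are among those with the largest called changes in their lists; 1 such S phase gene is not reported here. Neighbour windows took 25 tested genes on each side by GENCODE release 29 positions. Tested on simulated data for WT against TKO (14011 genes), 42% of 100 genes changed 1.2-fold and 90% of 100 changed 1.5-fold were called, with 6 false calls. Only these genes were changed, in WT alone, and they were drawn from genes with higher levels. In the data 49.7% of tested genes were called in WT against TKO, which shifts the adjusted threshold. The simulated rates therefore do not give the share of changes found in the comparisons reported. Alternatives tried are in the closing section. Python 3.11.15, numpy 2.4.6, pandas 2.3.3 and matplotlib 3.10.9 were also used.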

Additional observations from a re-analysis of the deposited data

How the results depend on the processing

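The counts of mitosis genes called against TKO held up best. Of the calls, 21 of 28 in D1240A, 24 of 34 in F1295A and 22 of 31 in WT were made under every alternative tried, but none of the 12 in D1240A against WT, the 1 in F1295A against WT or the 7 in D1240A against F1295A. Leaving out 1 library at a time gave 27 to 29 in D1240A, 29 to 35 in F1295A and 27 to 29 in WT against TKO, 7 to 12 in D1240A against WT, 0 to 1 in F1295A against WT and 2 to 8 in D1240A against F1295A. On the values as deposited, 0 members were called in D1240A against WT (12 at an unadjusted p under 0.05 by limma), 0 in F1295A against WT (4) and 0 in D1240A against F1295A (2), where 1608, 89 and 63 of all 14450 tested genes were called in these 3 comparisons. As deposited but without D1240A replicate 2, chosen after seeing the data, 10 members were called in D1240A against WT and 5 in D1240A against F1295A. Of all 14370 tested genes, 2273, 627 and 354 were then called in the same 3 comparisons. With only the compared groups in the fit, 0 were called in F1295A against WT (10 unadjusted) and 0 in D1240A against F1295A (11 unadjusted). In F1295A against WT, 2 members were called with median scaling, with a filter at a mean of 1 FPKM, with a pseudocount of 1 and with library weights, and 3 with neighbour medians removed. With neighbour medians removed, BUB3 had a log2 change of -0.27 in D1240A, -0.19 in F1295A and -0.25 in WT against TKO, PTTG1 -0.28, -0.25 and -0.20, and HMMR -0.27 in F1295A and -0.11 in WT. In D1240A against TKO, CCNA2 was then -0.087 and MKI67 -0.23. As deposited, SMC2 was -0.0044 in D1240A against WT. The cause of these changes was not tested. Of single-gene values under the alternatives, 158 kept their sign and lost their call, and 68 kept their sign and gained one. A further 11 changed sign with a call in the main fit, the alternative or both. Sign changes without a call in either were more frequent and were not counted. Replicate numbers recur in the groups, and correlations of deviations were weak. They spanned -0.05 to 0.09 for same-numbered libraries and -0.11 to 0.08 for different numbers. In D1240A and WT against TKO and in D1240A against F1295A, same-numbered pairs were all positive and different-numbered pairs mostly negative. Deviations were taken from group means, so positive same-numbered pairs make the others negative on balance. The negative signs are therefore not a separate observation. With a replicate block the counts were 29, 34 and 31 in D1240A, F1295A and WT against TKO. Between vector lines they were 11 in D1240A against WT, 1 in F1295A against WT and 5 in D1240A against F1295A. With the block the calls of BUB3 in WT against TKO, SMC2 in D1240A against WT, and KIF4A and PRC1 in D1240A against F1295A were lost, while AURKA in WT and FOXM1 in D1240A were called against TKO. Depth is unknown, so no counting error was set beside any value.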
